A study of Homo sapiens with 12 samples.

Results

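The genes described here are the collagens, the laminins and the other basement membrane and matrix genes that were read alongside them in H1299 and THP-1 cells. They were chosen by symbol alone: every collagen chain, every laminin chain, and HSPG2, NID1, NID2, TNC, VCAN, SPARC, FBN1, AGRN, LUM, DCN and BGN. This gave 67 genes of the 20307 in the deposited table, made up of 44 collagen chains, 12 laminin chains and 11 others. A mean of at least 1 TPM (a level corrected for transcript length and library size) in at least 1 group was reached by 43 of the 67, which are described, and 24 stayed under it and are counted as silent. Collagens are proteins of chains wound around each other, and some types, among them IV and VI, join chains of different genes in fixed partnerships. A basement membrane is a thin sheet under epithelium, around vessels and around muscle, in which a network of type IV collagen and a network of laminins are joined by nidogens and by the heparan sulfate proteoglycans perlecan and agrin. Carcinoma cells keep making parts of it, and macrophages are known producers of type VI collagen.

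The study measured RNA in 12 libraries, 3 in each of 4 groups. H1299 is an established line of non-small-cell lung carcinoma, labelled either WT, which is called control here as in the THP-1 labels, or DCBLD2 overexpression. THP-1 is an established monocytic leukaemia line, WT by its label, which PMA, a phorbol ester, turns macrophage-like. It had PMA for 24 h and was then kept for 48 h with control or with DCBLD2 H1299, which the design text gives as co-culture and the sample labels as supernatant. The labels name neither an empty construct for the control nor a clone. Nothing in them makes the 3 libraries of a group separate cultures, and p-values here cover only the spread among libraries, which may be technical. The 6 H1299 libraries held 14578887 to 23388187 estimated reads and the 6 THP-1 libraries 18606739 to 26787853.

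DCBLD2 itself went against the H1299 labels. It stood at 247, 148 and 196 TPM in the labelled control libraries and at 104.5, 98.2 and 92.5 TPM in those labelled DCBLD2. Groups are therefore named by their labels throughout, and every fold change sets labelled DCBLD2 against labelled control. Keratins and other carcinoma markers held 4286 to 5056 TPM in sum in H1299, with 16 of the 19 listed genes found in the table at 1 TPM or more in each group, and all 15 myeloid markers were at 1 TPM or more in THP-1. Of 10 fibroblast and mural cell markers, 4 reached 1 TPM in THP-1, and their summed level was 50.4 to 58.5 TPM in labelled control and 94.0 to 99.7 TPM in labelled DCBLD2, with POSTN and DPT at 0. Of these, mean PDPN was 21.9 and 75.8 TPM, PDGFRB 21.8 and 9.23 TPM, PDGFRA 6.77 and 6.90 TPM and FAP 3.77 and 3.598 TPM. In bulk RNA, fewer cells of a type and less RNA per cell cannot be told apart.

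The lines differed in the RNA of matrix genes. At 1 TPM or more, 18 of the 43 described genes were found in both lines, 11 in H1299 alone and 14 in THP-1 alone. Type VI collagen led in THP-1, where its chains summed to 883 TPM in labelled control against 60.1 TPM in H1299, and type IV collagen stood at 51.8 TPM against 8.13 TPM. Laminin chains led in H1299, with 263 TPM against 149 TPM. In the fit of all 12 libraries, 46 of 50 tested members differed between labelled control THP-1 and labelled control H1299, 24 of them higher in THP-1 and 22 lower, but 85.9% of all tested genes did so too. Cell line, PMA and exposure change together in this comparison and cannot be told apart.

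**Figure D1:**
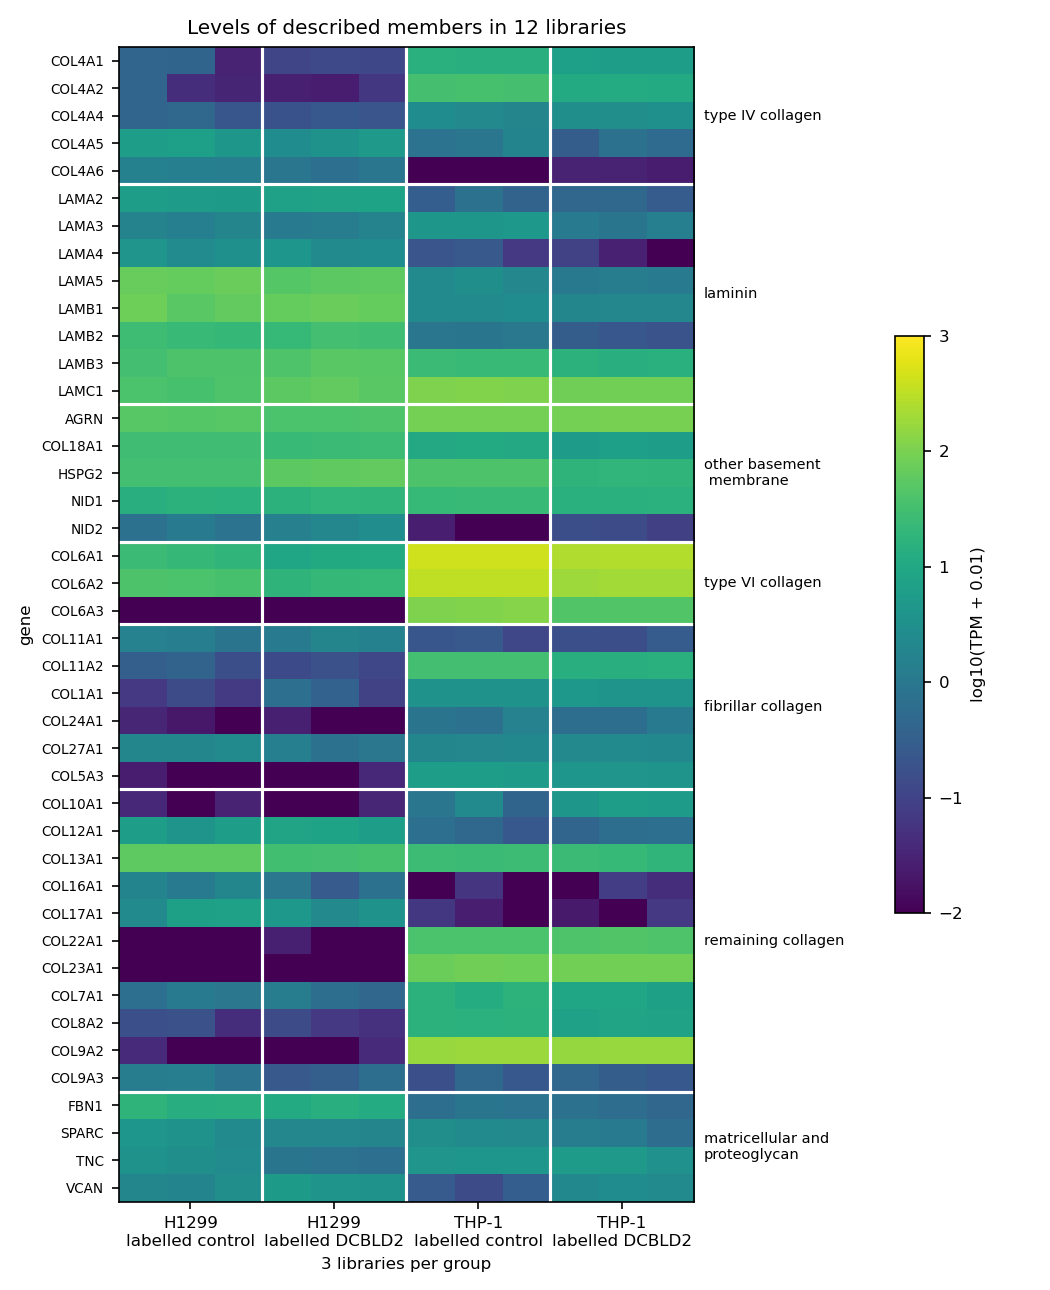
Level of described genes in each of the 12 libraries, as log10(TPM + 0.01) in colour, with genes grouped by class and libraries by group. COL6A1 and COL6A2 are brightest in THP-1, and COL6A3 is dark in all 6 H1299 libraries. By group mean, LAMA5 and LAMB1 are highest in labelled control H1299, though COL13A1 lies above LAMB1 in control replicate 2.

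THP-1 cells had lower levels of many basement membrane genes after exposure to labelled DCBLD2 H1299. Of 41 members tested, 23 fell, 7 rose and 11 were not called, beside 33.6% of all 13120 tested genes that fell and 34.5% that rose. The median log2 fold change was -0.33 over the 41 and -0.49 over the 37 described members among them, and that of all genes 0.00. The groups did not overlap, in TPM, for 29 of the 41, a share near the 64.9% over all genes tested. Replicates in THP-1 lay close together, with a coefficient of variation beyond counting noise of 1.96% against 13.3% in H1299, and changes as small as -0.05 on the log2 scale were called. With a change of 1.5-fold set as the level to exceed, 15 fell and 2 rose, beside 5.2% and 6.26% of all genes tested. The mitochondrial share of reads also differed between the THP-1 groups, at 3.48% to 3.51% in labelled control and 2.46% to 2.58% in labelled DCBLD2, and so did that of ribosomal protein genes, at 3.73% to 3.75% and 5.14% to 5.42%. Their part in the result was not tested.

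H1299 cells showed a mixed picture. Of 36 members tested, 8 rose, 10 fell and 18 were not called, beside 10.3% of all 12773 tested genes that rose and 10.6% that fell. Of 18 collagen chains tested, 2 rose and 6 fell, of 10 laminin chains 3 rose and 1 fell, and of HSPG2, NID1, NID2 and AGRN 2 rose and 1 fell. The median log2 fold change was -0.19 over the 36 and -0.29 over the 31 described members among them, against 0.00 over all genes. Without labelled DCBLD2 replicate 1, 11 members were called, and without replicate 2 of that group 8. Leaving out any of the other 4 libraries gave 14 to 16. Against a 1.5-fold change 1 rose and 2 fell, beside 0.344% and 0.705% of all genes tested.

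Type IV collagen is the network former of every basement membrane. In THP-1, 3 of its 5 tested chains fell and none rose, and in H1299 1 of 4 fell and none rose. Over all tested genes, 33.6% fell in THP-1 and 10.6% in H1299. The main chains, COL4A1 and COL4A2, are transcribed from neighbouring genes that lie head to head on chromosome 13 (GRCh38, COL4A1 from 110148963 to 110307233 on the minus strand, COL4A2 from 110305812 to 110513209 on the plus strand, GENCODE v29). Because both chains fell in THP-1, the stretch between their RefSeq starts is shown, with that upstream of COL4A5, which lies head to head with COL4A6 on the X chromosome. Both are from RefSeq on GRCh38.p14, plus strand, with CCAAT boxes (CCAAT, or ATTGG on the other strand) and GC boxes (GGGCGG, or CCGCCC) in capitals.
COL4A1 to COL4A2, chr13:110307158-110307283: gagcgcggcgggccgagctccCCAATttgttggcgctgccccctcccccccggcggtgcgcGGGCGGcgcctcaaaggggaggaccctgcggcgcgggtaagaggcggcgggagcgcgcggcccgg
COL4A5, chrX:108439588-108439837: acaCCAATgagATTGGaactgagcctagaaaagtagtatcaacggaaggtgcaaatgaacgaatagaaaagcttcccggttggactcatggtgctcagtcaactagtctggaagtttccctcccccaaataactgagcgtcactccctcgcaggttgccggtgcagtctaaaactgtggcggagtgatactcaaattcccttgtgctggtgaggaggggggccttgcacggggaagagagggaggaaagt
The first, 126 bases of 80.2% G and C, holds 1 CCAAT box, 1 GC box and no TATAAA on either strand. The second, 250 bases of 51.2% G and C, holds CCAAT on each strand, no GC box and no TATAAA. Of 34943 RefSeq promoters, 21.1% held a CCAAT box, 34.5% a GC box and 5.88% TATAAA in the 126 bases before the start, and 32.0%, 42.5% and 10.8% in the 250 bases before it. GENCODE v29 also has COL4A2 transcripts that start before this stretch. A promoter entry was found for 49 of the 67 members.

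In THP-1, COL4A1 had 15.2, 14.1 and 13.9 TPM in the labelled control libraries and 6.70, 6.01 and 6.42 TPM in the labelled DCBLD2 libraries. COL4A2 had 33.2, 35.0 and 33.2 TPM against 11.2, 11.99 and 11.2 TPM. The groups lay far apart for both chains, and COL4A2 fell further. The log2 fold changes were -1.19 ± 0.05 (SE), adjusted p = 3.2e-17 and -1.52 ± 0.04 (SE), adjusted p = 2.78e-22. COL4A5, a chain of kidney, eye and smooth muscle basement membranes, fell from a low level of 1.15 ± 0.527 to 0.529 ± 0.238 TPM (SD, n = 3), by a log2 fold change of -1.20 ± 0.22 (SE), adjusted p = 2.87e-05. COL4A4, its partner in the glomerulus, was not called on reads (log2 fold change 0.08 ± 0.09 (SE), adjusted p = 0.446), although its TPM groups did not overlap, at 2.70, 2.28 and 1.86 TPM against 3.13, 2.96 and 3.15 TPM.

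H1299 had little type IV collagen RNA. COL4A1 and COL4A2 reached at most 0.423 TPM in any library and were not tested. COL4A5 was its leading chain, with 6.32, 6.58 and 4.41 TPM against 2.69, 3.55 and 5.04 TPM, and these groups overlapped (log2 fold change -0.35 ± 0.19 (SE), adjusted p = 0.203). COL4A6, the partner of COL4A5 in skin and smooth muscle, had 1.58, 1.44 and 1.38 TPM against 0.905, 0.660 and 0.916 TPM. All 3 labelled DCBLD2 libraries were below all 3 controls, and the log2 fold change was -0.82 ± 0.21 (SE), adjusted p = 0.0229. Without labelled DCBLD2 replicate 2 the adjusted p for COL4A6 was 0.103. In THP-1, COL4A6 was at 2 reads or fewer in every library. COL4A3 was silent in both lines.

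**Figure D2:**
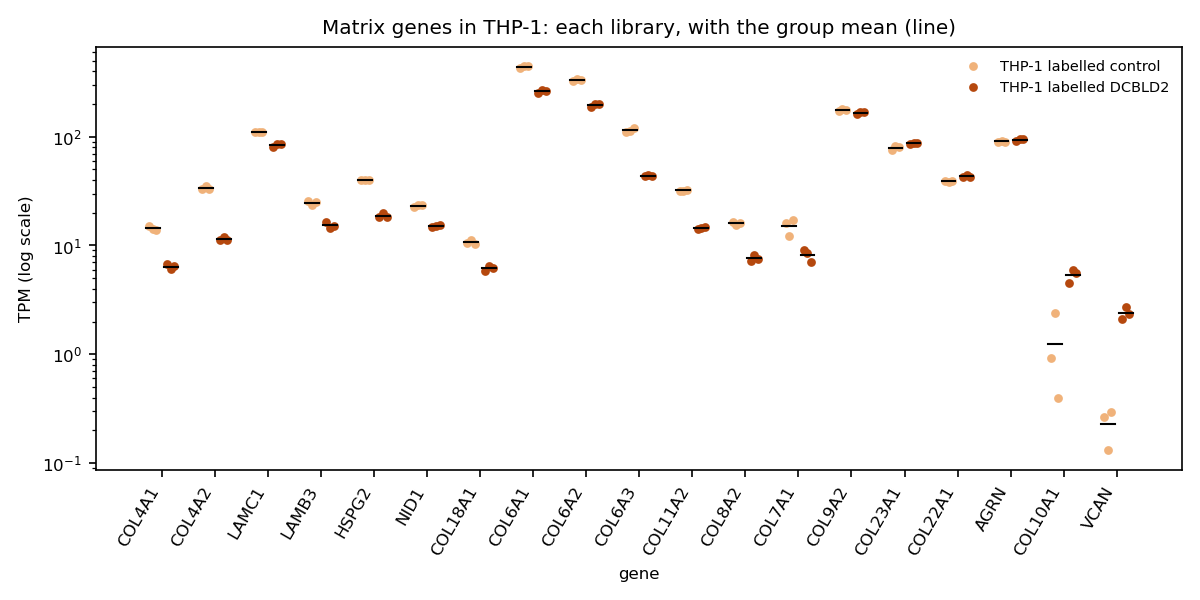
TPM on a log axis of basement membrane and matrix genes in each of the 6 THP-1 libraries, coloured by labelled group, with the group mean as a line. COL4A2 drops from 33.8 to 11.4 TPM and COL6A3 from 115 to 43.9 TPM, with the 3 libraries of a group close together for these genes.

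Laminins, cross-shaped trimers of an alpha, a beta and a gamma chain that cells bind through integrins and dystroglycan, fell in THP-1 and in part rose in H1299. In THP-1, 7 of 8 tested chains fell and none rose (LAMA2 was not called). Of 10 chains tested in H1299, 3 rose, 1 fell and 6 were not called. Beside these counts, 33.6% of all tested genes fell in THP-1, and 10.3% rose and 10.6% fell in H1299. The gamma chain LAMC1, shared by most laminins, was the leading laminin chain of THP-1, at 109.7, 111 and 109.8 TPM against 80.7, 84.8 and 86.3 TPM. Its groups did not overlap, and it fell by a log2 fold change of -0.37 ± 0.02 (SE), adjusted p = 4.41e-15. In H1299 LAMC1 instead rose, from 38.2, 34.9 and 41.5 TPM to 55.3, 62.0 and 52.3 TPM. The log2 fold change there was 0.56 ± 0.09 (SE), adjusted p = 0.00475.

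LAMA3 and LAMB3 are chains of the laminin that anchors epithelium at hemidesmosomes. In THP-1, LAMB3 had 25.6, 23.4 and 24.9 TPM in the labelled control libraries and 16.6, 14.5 and 15.2 TPM in the labelled DCBLD2 libraries, and it fell by a log2 fold change of -0.73 ± 0.05 (SE), adjusted p = 9.54e-13. LAMA3 fell furthest of the called laminin chains, from 4.45 ± 0.130 to 1.14 ± 0.278 TPM (SD, n = 3), with a log2 fold change of -2.29 ± 0.10 (SE), adjusted p = 3.35e-16. Both chains were thus lower in THP-1, with no overlap between the groups. LAMB3 in H1299 had 31.5, 39.5 and 39.9 TPM against 42.5, 53.3 and 49.8 TPM; its groups did not overlap, yet it was not called (log2 fold change 0.37 ± 0.12 (SE), adjusted p = 0.0572, or 0.0207 without control replicate 2). LAMA3 in H1299 was at 1.68 ± 0.250 to 1.34 ± 0.342 TPM (SD, n = 3) and was not called.

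LAMA5 and LAMB1 were the most abundant laminin chains of labelled control H1299, and LAMB1 and LAMC1 of labelled DCBLD2 H1299. LAMA5, the alpha chain of most adult basement membranes, had 69.5, 66.7 and 71.9 TPM against 48.7, 54.4 and 57.1 TPM. The groups did not overlap, and the fall was small, with a log2 fold change of -0.36 ± 0.10 (SE), adjusted p = 0.0335. That call was lost without any of 4 libraries (control replicates 2 and 3, labelled DCBLD2 replicates 1 and 2), with adjusted p from 0.0512 to 0.131. LAMB1, a beta chain found with it, had 77.6, 53.3 and 63.4 TPM against 66.5, 71.9 and 67.0 TPM; the highest and the lowest library were both controls, and it was not called (log2 fold change 0.09 ± 0.12 (SE), adjusted p = 0.632). LAMB2, the beta chain of kidney and nerve-muscle junctions, had 28.3, 23.8 and 21.4 TPM against 22.3, 32.7 and 28.9 TPM, with overlapping groups and no call (log2 fold change 0.18 ± 0.15 (SE), adjusted p = 0.417). LAMA2, the alpha chain around muscle fibres, had 6.34, 5.59 and 5.22 TPM against 7.36, 7.61 and 7.95 TPM and rose by 0.83 ± 0.16 (SE), adjusted p = 0.00831. Without labelled DCBLD2 replicate 2, the adjusted p of LAMA2 was 0.0536. By mean TPM LAMA2 was 1.34-fold higher, against 1.77-fold on reads. LAMA4, an alpha chain of vessels, was not called.

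In THP-1 these chains were low. LAMA5 fell from 2.49 ± 0.505 to 1.14 ± 0.0821 TPM (SD, n = 3) (log2 fold change -1.04 ± 0.09 (SE), adjusted p = 2.48e-10), LAMB2 from 0.936 ± 0.0713 to 0.228 ± 0.0501 TPM (SD, n = 3) (-1.97 ± 0.23 (SE), adjusted p = 4.61e-08) and LAMB1 from 2.45 ± 0.170 to 2.02 ± 0.0790 TPM (SD, n = 3) (-0.33 ± 0.11 (SE), adjusted p = 0.0114). LAMB1 was not called without control replicate 3 (adjusted p = 0.0549) or without labelled DCBLD2 replicate 2 (0.0737). LAMA5 in THP-1 was at 3.58% of its H1299 level in labelled control and 2.14% in labelled DCBLD2, and LAMB1 at 3.78% and 2.94%. Of the 19 carcinoma markers, 11 were at 1 TPM or more in labelled control THP-1 and 13 in labelled DCBLD2 THP-1, with EPCAM and KRT19 at 0. In H1299 EPCAM and KRT19 were low as well, at means of 0.444 and 0.653 TPM and of 0.177 and 0.042 TPM. The summed level of the 19 markers in THP-1 was 308 to 320.2 TPM and 285 to 300.4 TPM. Single markers went either way: mean KRT18 was 0.204 and 1.01 TPM, and mean AXL 26.7 and 8.87 TPM. As a share of the H1299 level, KRT8 stood at 0.052% in labelled control and 0.11% in labelled DCBLD2, and KRT18 at 0.015% and 0.11%. CAVIN1 stood at 0.052% and 0.13%, and DSP at 0.54% and 0.22%. Their part in the laminin result was not tested.

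**Figure D3:**
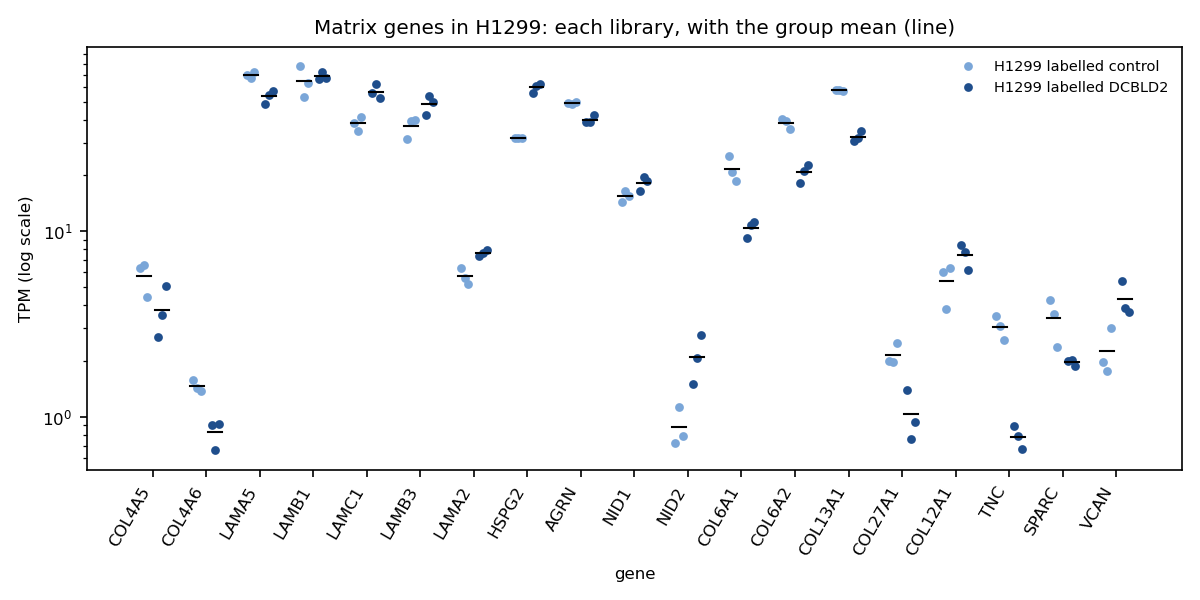
TPM on a log axis of basement membrane and matrix genes in each of the 6 H1299 libraries, coloured by labelled group, with the group mean as a line. LAMC1 and HSPG2 lie higher and COL6A1, COL6A2, COL13A1 and TNC lower in the labelled DCBLD2 libraries, while LAMB1 and COL4A5 overlap between the groups.

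The proteoglycan perlecan, HSPG2, which fills the basement membrane and binds growth factors, changed in opposite directions in the lines. In H1299 it had 31.7, 31.8 and 31.7 TPM in the labelled control libraries and 55.4, 61.0 and 62.5 TPM in the labelled DCBLD2 libraries. In THP-1 it had 40.3, 40.4 and 40.0 TPM against 18.2, 19.8 and 18.4 TPM. Neither pair of groups overlapped, and the level rose in H1299, by a log2 fold change of 0.94 ± 0.10 (SE), adjusted p = 0.00085, and fell in THP-1, by -1.05 ± 0.02 (SE), adjusted p = 4.59e-22. HSPG2 shares exon sequence with LDLRAD2 on the opposite strand, and reads of the pair cannot be told apart without strand.

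Nidogen-1, NID1, which bridges laminin and type IV collagen, had 22.8, 23.4 and 23.3 TPM against 14.8, 15.2 and 15.3 TPM in THP-1 and fell by a log2 fold change of -0.59 ± 0.04 (SE), adjusted p = 1.37e-13. In H1299 it had 15.5 ± 0.961 to 18.3 ± 1.68 TPM (SD, n = 3) and was not called (log2 fold change 0.23 ± 0.11 (SE), adjusted p = 0.172). Nidogen-2, NID2, rose in H1299 from 0.883 ± 0.219 to 2.11 ± 0.629 TPM (SD, n = 3), by 1.496 ± 0.32 (SE), adjusted p = 0.0135, with adjusted p = 0.0582 without labelled DCBLD2 replicate 2. It was at 6 reads or fewer in every THP-1 library. NID1 was thus found in both lines and NID2 in H1299.

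COL18A1, whose cleaved end is endostatin, had 10.6, 11.2 and 10.4 TPM against 5.82, 6.53 and 6.24 TPM in THP-1 and fell by a log2 fold change of -0.75 ± 0.06 (SE), adjusted p = 1.08e-11. In H1299 it had 29.4, 29.7 and 29.7 TPM against 23.7, 25.5 and 26.9 TPM; every labelled DCBLD2 library was lower, but it was not called (log2 fold change -0.24 ± 0.10 (SE), adjusted p = 0.116). Agrin, AGRN, the proteoglycan that clusters receptors at nerve-muscle junctions, had 49.5, 48.5 and 50.0 TPM against 38.7, 38.7 and 42.3 TPM in H1299 and 90.2, 91.5 and 90.1 TPM against 90.5, 94.9 and 94.6 TPM in THP-1. The H1299 groups did not overlap and the THP-1 groups did. AGRN was called lower in H1299 (log2 fold change -0.31 ± 0.10 (SE), adjusted p = 0.0469) and slightly higher in THP-1 (0.08 ± 0.02 (SE), adjusted p = 0.000914). In H1299 the call was lost without any of 5 libraries, all but labelled DCBLD2 replicate 3, with adjusted p from 0.0529 to 0.190. In THP-1 it was lost when the libraries of both lines were fitted together.

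Type VI collagen, a beaded filament that links cells to the matrix around basement membranes, is built of COL6A1, COL6A2 and a longer chain such as COL6A3. COL6A1 was the most abundant member in THP-1, with 426, 442 and 444 TPM in the labelled control libraries and 253, 269 and 262 TPM in the labelled DCBLD2 libraries. COL6A2 had 327, 337 and 329 TPM against 188, 200.1 and 200.4 TPM and COL6A3 110.2, 113 and 121 TPM against 43.8, 44.3 and 43.7 TPM. All 3 chains were lower in all 3 labelled DCBLD2 libraries, with COL6A3 down furthest. The log2 fold changes were -0.71 ± 0.02 (SE), adjusted p = 3.2e-21 for COL6A1, -0.72 ± 0.02 (SE), adjusted p = 1.12e-20 for COL6A2 and -1.43 ± 0.02 (SE), adjusted p = 2.33e-26 for COL6A3. Their sum fell from 883 to 502 TPM, the larger part of the drop from 1657 to 1139 TPM over all 67 members.

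H1299 had reads of COL6A1 and COL6A2 but none of COL6A3. COL6A3 was at 0 reads in all 6 libraries. Taken alone, a library with 0 reads allows an expected count of up to about 3, and the 6 together allow less in each. COL6A1 had 25.5, 21.0 and 18.8 TPM against 9.21, 10.8 and 11.2 TPM and COL6A2 40.4, 39.2 and 35.5 TPM against 18.3, 21.2 and 22.9 TPM. Neither overlapped between the groups, and both fell, by log2 fold changes of -1.10 ± 0.15 (SE), adjusted p = 0.00284 and -0.90 ± 0.13 (SE), adjusted p = 0.00318. No library left out ended either call. The alternatives to COL6A3, COL6A5 and COL6A6, were silent in both lines.

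For some partner chains the TPM ratio differed between the groups without overlap, as the plot of chain ratios shows for THP-1. In THP-1 the ratio of COL6A1 to COL6A3 was 3.81 ± 0.12 (SD, n = 3) in labelled control and 5.95 ± 0.15 in labelled DCBLD2, and that of COL6A2 to COL6A3 2.88 ± 0.15 and 4.47 ± 0.15. COL6A1 to COL6A2 was 1.32 ± 0.03 and 1.33 ± 0.02. COL4A2 to COL4A1 was 2.35 ± 0.15 and 1.80 ± 0.17, and LAMB3 to LAMA3 was 5.54 ± 0.26 and 13.99 ± 3.08. In H1299, LAMB1 to LAMC1 went from 1.70 ± 0.29 to 1.21 ± 0.06 and LAMA5 to LAMB1 from 1.09 ± 0.18 to 0.78 ± 0.06. LAMA5 to LAMB1 also fell without overlap in THP-1, from 1.03 ± 0.27 to 0.57 ± 0.03. LAMB1 to LAMC1 in THP-1 was 0.022 ± 0.002 and 0.024 ± 0.0001. In H1299, LAMB3 to LAMA3 rose without overlap from 22.5 ± 5.18 to 37.3 ± 7.47. COL6A1 to COL6A2 fell there without overlap, from 0.565 ± 0.057 to 0.501 ± 0.0097. Each of these was put to a two-sided exact permutation test, 13 ratios in all, in which 3 against 3 libraries cannot go below p = 0.1, or 0.13 after adjustment here. In THP-1, COL6A1 to COL6A2 (exact p = 0.9) and LAMB1 to LAMC1 (exact p = 0.3) did not reach that limit. The other ratios given here stood at it, so that none could pass 0.05.

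**Figure D4:**
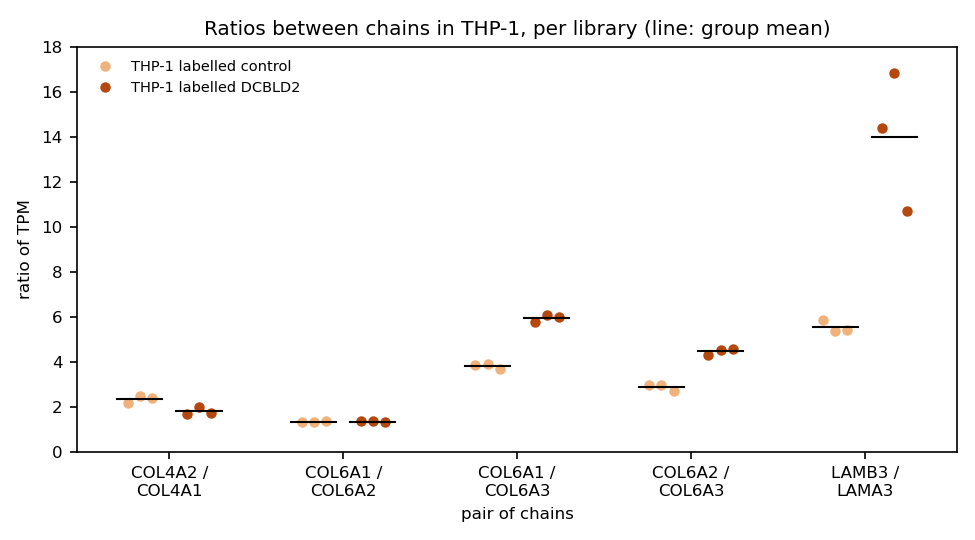
TPM ratio of 5 pairs of partner chains in each of the 6 THP-1 libraries, coloured by labelled group, with the group mean as a line. The ratios to COL6A3 and to LAMA3 lie higher in labelled DCBLD2 and that of COL4A2 to COL4A1 lower, while COL6A1 to COL6A2 is at 1.32 and 1.33.

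Fibrillar collagens, the banded fibres of tendon, bone and stroma, were few. The main chains COL1A2, COL2A1, COL3A1, COL5A1 and COL5A2 were silent, and COL1A1 reached 4.09 TPM in THP-1 without being called on reads (log2 fold change -0.01 ± 0.11). COL11A2, a chain of cartilage fibrils, was the leading one in THP-1, with 31.7, 31.9 and 32.5 TPM in the labelled control libraries and 14.2, 14.5 and 14.8 TPM in the labelled DCBLD2 libraries. It fell by a log2 fold change of -1.29 ± 0.04 (SE), adjusted p = 4.17e-20, with no overlap. COL5A3, a minor chain of thin fibrils, had 5.96, 6.02 and 5.49 TPM against 4.25, 4.01 and 3.81 TPM and fell by -0.49 ± 0.07 (SE), adjusted p = 9.28e-07. In H1299, COL27A1, a fibrillar chain of cartilage, fell from 2.16 ± 0.302 to 1.03 ± 0.329 TPM (SD, n = 3) (log2 fold change -1.29 ± 0.18 (SE), adjusted p = 0.00312), and its groups did not overlap. In THP-1 COL27A1 was called higher (log2 fold change 0.25 ± 0.10 (SE), adjusted p = 0.0263), but its groups overlapped and the call was lost without any of 4 libraries (control replicates 1 and 2, labelled DCBLD2 replicates 1 and 2; adjusted p from 0.0657 to 0.105). COL11A1, tested in each line, and COL24A1, tested in THP-1, were not called.

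Among the remaining collagens THP-1 had its strongest signals in cartilage and membrane types. COL9A2, a chain that decorates cartilage fibrils, had 173, 181 and 176 TPM against 160.1, 168 and 170.1 TPM; its log2 fold change was -0.05 ± 0.02 (SE), adjusted p = 0.0446, and the call was lost without any of 4 libraries (control replicates 2 and 3, labelled DCBLD2 replicates 1 and 2; adjusted p from 0.0746 to 0.246). COL23A1, a membrane-spanning collagen, had 75.8, 82.3 and 80.2 TPM against 85.1, 87.4 and 87.8 TPM, and COL22A1, a collagen of tissue junctions, had 39.0, 38.6 and 39.1 TPM against 42.4, 44.6 and 42.7 TPM. Both rose a little in THP-1, by log2 fold changes of 0.16 ± 0.03 (SE), adjusted p = 1.38e-05 and 0.19 ± 0.03 (SE), adjusted p = 3.05e-07. In H1299 COL23A1 had 0 reads in every library, and COL22A1 had 1 read in 1 library and 0 in the others.

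COL7A1, which forms the anchoring fibrils under skin epithelium, had 16.0, 12.3 and 17.1 TPM against 9.03, 8.598 and 7.07 TPM in THP-1 and fell by a log2 fold change of -0.88 ± 0.05 (SE), adjusted p = 2.02e-14. COL8A2, a short chain of the corneal endothelium, had 16.4, 15.5 and 16.1 TPM against 7.17, 8.14 and 7.46 TPM and fell by -1.06 ± 0.05 (SE), adjusted p = 4.4e-15. COL10A1, the collagen of hypertrophic cartilage, went the other way, with 0.926, 2.39 and 0.396 TPM against 4.52, 5.96 and 5.58 TPM, and every labelled DCBLD2 library lay above every control. Those values rested on 14 to 28 reads in the controls and 58 to 91 in labelled DCBLD2, and the log2 fold change on reads was 1.73 ± 0.24 (SE), adjusted p = 7.09e-07. COL12A1 had 0.456 ± 0.214 to 0.569 ± 0.124 TPM (SD, n = 3) in THP-1, and its groups overlapped. It was called higher on reads (0.85 ± 0.23 (SE), adjusted p = 0.00202).

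COL13A1, a membrane-spanning collagen of cell adhesion sites, was the leading collagen of H1299, with 57.5, 57.8 and 57.2 TPM in the labelled control libraries and 30.8, 31.8 and 34.5 TPM in the labelled DCBLD2 libraries. The groups were well apart, and it fell by a log2 fold change of -0.83 ± 0.12 (SE), adjusted p = 0.00318. In THP-1 it had 26.3, 25.7 and 26.3 TPM against 25.3, 21.9 and 18.6 TPM, a smaller difference of -0.16 ± 0.06 (SE), adjusted p = 0.0253, which was lost without any of 4 libraries (control replicates 1 and 3, labelled DCBLD2 replicates 2 and 3; adjusted p from 0.0524 to 0.158). COL12A1, a collagen on the surface of fibrils, had 6.04, 3.81 and 6.33 TPM against 8.49, 7.77 and 6.17 TPM in H1299, with overlapping groups. It was called higher there (log2 fold change 0.49 ± 0.14 (SE), adjusted p = 0.0346), but not without any single library except control replicate 3, with adjusted p from 0.0592 to 0.117. COL9A3 fell in H1299 from 1.15 ± 0.323 to 0.398 ± 0.216 TPM (SD, n = 3) (-1.57 ± 0.41 (SE), adjusted p = 0.0259), which was lost without control replicate 1 or labelled DCBLD2 replicate 1 or 2 (adjusted p from 0.0529 to 0.109). COL16A1, COL17A1 and COL7A1 were not called in H1299; COL17A1, the hemidesmosome collagen, had 2.44, 6.80 and 7.31 TPM against 4.68, 2.23 and 3.57 TPM, and control replicate 1 lay apart from the other controls (adjusted p = 0.0131 without it).

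Of the matricellular proteins and matrix proteoglycans, TNC, an anti-adhesive glycoprotein of wounds and tumour stroma, had the largest fall of any member in H1299. It had 3.51, 3.09 and 2.60 TPM against 0.887, 0.788 and 0.669 TPM, every labelled DCBLD2 library was far below every control, and the log2 fold change was -2.12 ± 0.19 (SE), adjusted p = 0.000377. In THP-1 TNC had 4.03, 4.16 and 4.19 TPM against 5.72, 5.15 and 3.34 TPM, with the groups overlapping, and was not called on reads (log2 fold change -0.12 ± 0.09 (SE), adjusted p = 0.215; adjusted p = 0.0490 without labelled DCBLD2 replicate 1). SPARC, a collagen-binding protein, fell in both lines from low levels, from 3.41 ± 0.966 to 1.98 ± 0.0765 TPM (SD, n = 3) in H1299 and from 2.49 ± 0.367 to 1.02 ± 0.375 TPM (SD, n = 3) in THP-1. The log2 fold changes were -1.17 ± 0.32 (SE), adjusted p = 0.0307 and -0.83 ± 0.20 (SE), adjusted p = 0.00073. In H1299 the SPARC call was lost without control replicate 1 or any 1 of the labelled DCBLD2 replicates (adjusted p from 0.0550 to 0.137).

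Versican, VCAN, a large hyaluronan-binding proteoglycan, rose in both lines. In THP-1 it had 0.265, 0.131 and 0.296 TPM against 2.13, 2.70 and 2.33 TPM, from 14 to 29 reads in the controls and 243 to 330 in labelled DCBLD2, and the log2 fold change was 3.58 ± 0.15 (SE), adjusted p = 6.5e-17, the largest of any member. In H1299 it had 1.98, 1.76 and 3.01 TPM against 5.37, 3.88 and 3.65 TPM and rose by 0.94 ± 0.21 (SE), adjusted p = 0.0163. Without labelled DCBLD2 replicate 1 or 2 the H1299 adjusted p was 0.0575 or 0.0531. Fibrillin-1, FBN1, the backbone of microfibrils, had 15.1 ± 2.70 to 12.3 ± 1.04 TPM (SD, n = 3) in H1299 and 0.767 ± 0.120 to 0.610 ± 0.164 TPM (SD, n = 3) in THP-1. It was called in neither line. The leucine-rich proteoglycans LUM, DCN and BGN were silent.

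Whether a gene responded differently in the lines was tested as the difference of the THP-1 and H1299 responses in the 12-library fit. Of all 14244 genes tested, 19.3% had a higher response in THP-1 and 19.5% a lower one, or 38.7% in all. Among the 11631 genes tested in each line's own fit, 22.2% had a higher and 22.8% a lower response, or 45.0% in all. Of the 28 members tested in each line's own fit, 18 differed, among them AGRN, COL13A1, COL27A1, COL6A1, TNC and VCAN with the higher response in THP-1, and COL18A1, COL19A1, COL4A5, HSPG2, LAMA3, LAMA5, LAMB1, LAMB2, LAMB3, LAMC1 and NID1 with the lower. The fit also called COL4A6 and COL9A3, which were hardly read in THP-1, for 20 of 50 members tested in all, a share near that of all genes. The second list holds laminin chains together with perlecan and nidogen-1. The largest were LAMB2 (difference in log2 fold change -2.16 ± 0.30 (SE), adjusted p = 8.12e-05), LAMA3 (-2.03 ± 0.24 (SE), adjusted p = 2.98e-05) and HSPG2 (-2.01 ± 0.10 (SE), adjusted p = 5.96e-08). On the other side stood VCAN (2.64 ± 0.33 (SE), adjusted p = 3.76e-05) and TNC (1.97 ± 0.21 (SE), adjusted p = 1.22e-05). HSPG2 and LAMC1 rose in H1299 and fell in THP-1, and AGRN and COL27A1 fell in H1299 and were called higher in THP-1. COL13A1, COL6A1, COL6A2, LAMA5 and SPARC fell in both, and COL12A1 and VCAN rose in both.

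The differences for COL4A5, COL6A1, LAMB1, COL9A3 and COL19A1 were weak. Leaving out single libraries ended the call in all but 3 of 12 cases for COL4A5 (adjusted p up to 0.0989), all but 3 for COL6A1 (up to 0.0902), all but 2 for LAMB1 (up to 0.133), 8 of 12 for COL9A3 (up to 0.124) and 5 of 12 for COL19A1 (up to 0.0691). COL19A1, silent by level, was tested on reads alone and rose in H1299 from 1, 2 and 7 reads in the labelled control libraries to 8, 12 and 13 in the labelled DCBLD2 libraries (log2 fold change 1.93 ± 0.57 (SE), adjusted p = 0.039). The H1299 call was lost without any library but control replicate 3 (adjusted p from 0.0699 to 0.125), under DESeq2 (0.0719) and with no filter on low counts (0.0516). Of 24 silent members, 5 had enough reads to be tested in H1299 and 4 in THP-1, and COL19A1 was the sole one called. The highest value of a silent member in any library was 1.301 TPM.

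**Figure D5:**
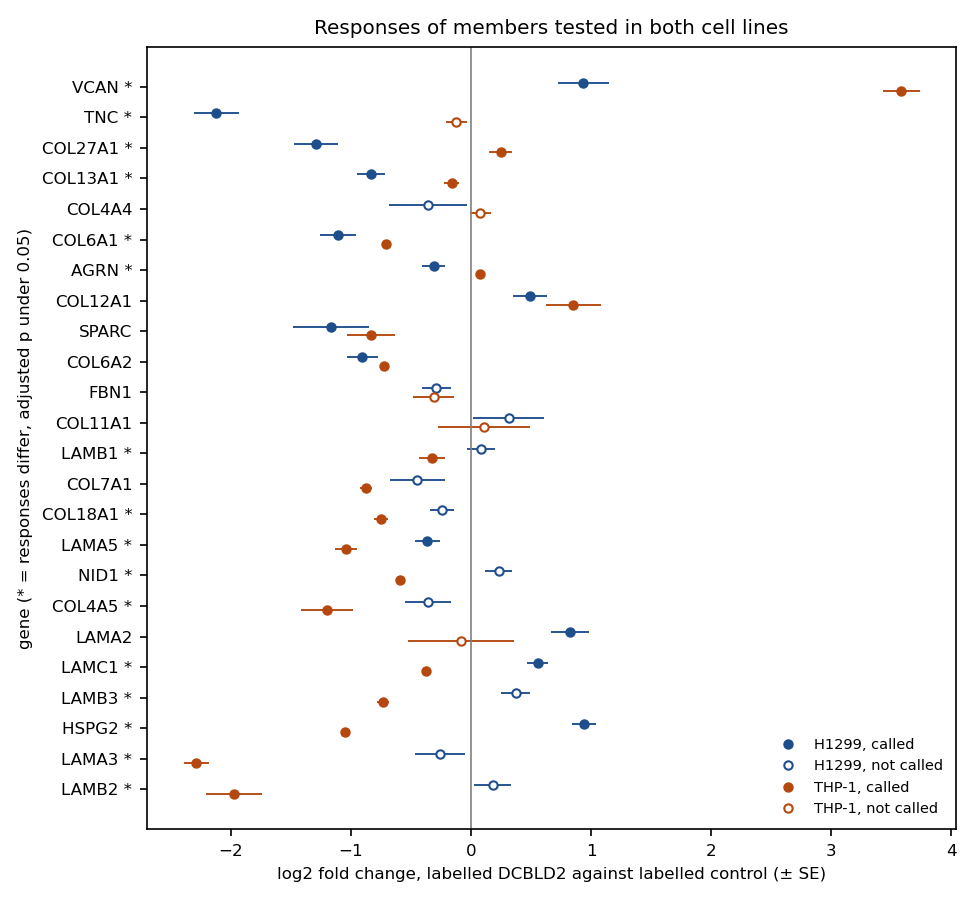
log2 fold change of the described members tested in each line, 1 gene a row, with H1299 in blue and THP-1 in orange, bars for the SE, filled points for calls and a star where the responses differ. HSPG2 and LAMC1 have H1299 to the right of 0 and THP-1 to the left, VCAN has both to the right, and COL6A1, COL6A2 and LAMA5 have both to the left.

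Genes that fold, export, cut and bind these proteins were read as fixed lists. The counts of every list stand beside the shares of all tested genes. Those shares were 10.3% higher and 10.6% lower in H1299, and 34.5% higher and 33.6% lower in THP-1. Of 19 folding and modification genes in the table, 5 rose and 1 fell in H1299, and of 18 tested in THP-1 6 rose and 9 fell (median log2 fold changes 0.15 and -0.26, against 0.00 over all genes in each line). In H1299, PLOD2, a lysyl hydroxylase of collagen, went from 16.4 ± 3.65 to 24.9 ± 3.16 TPM (0.61 ± 0.15, adjusted p = 0.0215), and P3H1, a prolyl hydroxylase, from 34.7 ± 0.506 to 49.1 ± 3.599 TPM (0.49 ± 0.10, adjusted p = 0.0119), with TPM as mean ± SD (n = 3) and the brackets, here and for the lists that follow, as log2 fold change ± SE. In THP-1 P3H1 instead fell, from 297 ± 6.40 to 201 ± 1.14 TPM (-0.53 ± 0.02, adjusted p = 8.31e-18), as did P4HA2, a chain of the enzyme that stabilizes the triple helix, from 44.8 ± 1.16 to 20.1 ± 1.90 TPM (-1.05 ± 0.05, adjusted p = 4.83e-16). P4HB, its partner chain, fell from 837 ± 13.7 to 659 ± 17.7 TPM (-0.31 ± 0.02, adjusted p = 1.45e-14). P3H2, which acts on type IV collagen, fell in H1299 from 11.1 ± 2.54 to 7.29 ± 1.24 TPM (-0.50 ± 0.15, adjusted p = 0.0396) and rose in THP-1 from 62.7 ± 2.56 to 88.4 ± 3.85 TPM (0.41 ± 0.03, adjusted p = 5.55e-13). In H1299 the calls of PLOD2, P3H1 and P3H2 were lost without labelled DCBLD2 replicate 2 (adjusted p = 0.105, 0.0597 and 0.161), that of PLOD2 also without control replicate 3 (0.0555) or labelled DCBLD2 replicate 1 (0.0577), and that of P3H2 without control replicate 3 (0.115) or labelled DCBLD2 replicate 3 (0.117).

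Of 9 genes that load collagen into export carriers, 4 rose and none fell in H1299, and 2 rose and 4 fell in THP-1 (medians 0.31 and -0.08). MIA3, the cargo receptor for bulky collagens, rose in H1299 from 8.65 ± 2.29 to 15.1 ± 2.41 TPM (0.83 ± 0.17, adjusted p = 0.0126) and in THP-1 from 18.9 ± 0.978 to 22.4 ± 0.901 TPM (0.38 ± 0.04, adjusted p = 1.4e-08). SEC24D, SEC23A and CUL3 were the other export genes that rose in H1299, and SEC23A fell in THP-1 (-0.37 ± 0.06, adjusted p = 4.15e-06). In H1299 all 4 lost their call without labelled DCBLD2 replicate 2 (adjusted p from 0.0737 for MIA3 to 0.171 for SEC23A), SEC24D also without control replicate 3 (0.0540), and SEC23A without any library but control replicate 1.

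Of 11 tested genes for processing and cross-linking, 1 rose and 4 fell in H1299, and 3 rose and 7 fell in THP-1 (medians -0.17 and -0.41). TGM2, a cross-linking transglutaminase, fell in H1299 from 39.2 ± 6.27 to 13.5 ± 3.74 TPM (-1.70 ± 0.17, adjusted p = 0.000568) and in THP-1 from 156 ± 5.69 to 111 ± 7.16 TPM (-0.47 ± 0.02, adjusted p = 6.65e-17). LOXL1, a lysyl oxidase, fell in H1299 from 30.01 ± 7.73 to 14.04 ± 2.06 TPM (-1.10 ± 0.19, adjusted p = 0.00692). PXDN, the peroxidase that cross-links type IV collagen, fell there from 27.1 ± 2.41 to 18.6 ± 0.871 TPM (-0.58 ± 0.10, adjusted p = 0.00723). In THP-1, BMP1, which trims procollagens, fell from 126 ± 2.82 to 91.5 ± 2.62 TPM (-0.41 ± 0.02, adjusted p = 1.08e-13), and ADAMTS2, which trims their other end, rose from 25.0 ± 1.17 to 31.0 ± 1.39 TPM (0.35 ± 0.05, adjusted p = 2.74e-07).

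Of the receptors that bind these proteins, 4 rose and 5 fell of 19 tested in H1299, and 6 rose and 11 fell of 20 tested in THP-1 (medians -0.24 and -0.07). CD44 was among those that fell in H1299 on reads, but its mean TPM was higher, at 467 ± 6.18 and 487 ± 21.6 TPM, with overlapping groups. Over all tested genes, 10.3% rose and 10.6% fell in H1299, and 34.5% rose and 33.6% fell in THP-1. DAG1, the dystroglycan that binds laminins, perlecan and agrin, fell in each line, from 91.2 ± 3.91 to 61.2 ± 1.75 TPM in H1299 (-0.60 ± 0.09, adjusted p = 0.00356) and from 62.7 ± 1.58 to 36.6 ± 1.61 TPM in THP-1 (-0.72 ± 0.03, adjusted p = 5.15e-18). ITGA3 and ITGA7, alpha chains of laminin-binding integrins, fell in THP-1, from 203 ± 1.44 to 113 ± 1.98 TPM (-0.78 ± 0.02, adjusted p = 3.09e-22) and from 95.3 ± 1.68 to 42.5 ± 1.62 TPM (-1.13 ± 0.03, adjusted p = 5.52e-22). DDR1, a collagen receptor kinase, fell in H1299 (-0.65 ± 0.15, adjusted p = 0.0167), and the integrin beta chain ITGB1 rose (0.56 ± 0.15, adjusted p = 0.0307). The DDR1 call was lost without labelled DCBLD2 replicate 1 or 2 (adjusted p = 0.0554 and 0.0910), and that of ITGB1 without control replicate 3 or any 1 labelled DCBLD2 replicate (from 0.0510 to 0.134). Of other basement membrane genes, 0 rose and 1 of 12 tested, FBLN1, fell in H1299 (-0.66 ± 0.12, adjusted p = 0.00797, or 0.0510 without labelled DCBLD2 replicate 2), and 3 rose and 3 fell of 7 tested in THP-1 (medians 0.14 and -0.25). SPOCK1, a testican proteoglycan, rose in THP-1 from 14.4 ± 0.588 to 39.0 ± 1.84 TPM (1.48 ± 0.04, adjusted p = 2.35e-21), and fibronectin, FN1, from 1211 ± 6.35 to 1409 ± 36.4 TPM (0.25 ± 0.01, adjusted p = 3.66e-15).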

How the data were processed

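Trizol extraction and the NEBNext Ultra kit are stated per the labels' protocols. The submitters' processing notes list hg38 and, with no order, RSEM, HISAT2, StringTie (1.3.1), Bowtie2 (2.2.8) and fastp (0.18.0). The annotation and the handling of strand are not given there. Of the described members, 14 overlap exons of an opposite-strand gene, and for 6 of them (COL18A1, COL9A3, HSPG2, LAMA5, LAMB1 and NID2) that gene is in the table too. What the authors deposited is 1 table with a TPM and an estimated count for each gene and library, the counts not normalized.

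TPM was used for levels. Tests used the estimated counts, rounded, in edgeR 4.0.16 under R 4.3.3 (quasi-likelihood F-test, TMM scaling, filterByExpr). Each line was fitted on its own 6 libraries, and a fit of all 12 gave the difference of responses and the cell line comparison. Adjustment was by Benjamini-Hochberg over every gene tested, with calls at an adjusted p under 0.05. Chain ratios were put to exact permutation tests. Alternatives were a block for the replicate number, fits without each library, DESeq2 1.42.0, its size factors, other filters, all libraries together, limma 3.58.1 on log2(TPM + 1) and log2(TPM + 0.1), limma voom with weights per line, a 1.5-fold threshold and, for THP-1, the spread of H1299. The steps were tested on simulated data. The 605 genes with no symbol stayed in. Results of some genes are counted in the totals but not reported here.

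The members, the lists and the tests were chosen with earlier results of these data known. Values in every library are given for members called in a line with a group mean of at least 5 TPM there, and for those of at least 20 TPM in any group. Some lower members were given them after their values were seen. Up to 4 called genes of smallest p per pathway list and line were eligible for naming. Positions are from GENCODE 29 on GRCh38, and promoter sequences from RefSeq.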

Additional observations from a re-analysis of the deposited data

Results flagged for a closer look

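For the described members named here the response to labelled DCBLD2 differed between the cell lines by the test of the difference itself, given here as the log2 fold change in THP-1 minus that in H1299. It was positive for VCAN (2.64), TNC (1.97), COL27A1 (1.53), COL13A1 (0.65), COL6A1 (0.38) and AGRN (0.38). Of these, VCAN rose in each line and further in THP-1, COL13A1 and COL6A1 fell in each and less in THP-1, and TNC fell in H1299 and was not called in THP-1. It was negative for the laminin chains LAMB2 (-2.16), LAMA3 (-2.03), LAMB3 (-1.11), LAMC1 (-0.94), LAMA5 (-0.68) and LAMB1 (-0.42). The basement membrane genes HSPG2 (-2.01), NID1 (-0.83), COL4A5 (-0.86) and COL18A1 (-0.52) also had a negative difference. LAMB2 in THP-1 was counted from 56 to 68 reads in labelled control and 11 to 23 in labelled DCBLD2. The 2 lines differ in spread, and the fit of all 12 libraries gives them a common one.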

How the results depend on the processing

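Leaving out a library in turn gave 8 to 16 members called in H1299 (3 to 8 higher, 5 to 9 lower), 27 to 31 in THP-1 (6 to 7 higher, 21 to 25 lower), 15 to 18 with a different response (6 to 9 and 9 to 11) and 46 to 47 differing between the lines (24 to 25 and 22 to 23). The log2 fold change of DCBLD2 in H1299 ranged from -1.45 to -1.05. Against a 1.5-fold change, 3 members were called in H1299 (1 higher, 2 lower) and 17 in THP-1 (2 higher, 15 lower). In H1299, limma called 5 members higher on log2(TPM + 1) and 5 on log2(TPM + 0.1). AGRN, COL12A1, COL4A6, LAMA2 and SPARC lost their H1299 calls in each of these fits on TPM. With the common spread of H1299, a likelihood ratio test called 3 members higher in THP-1, and AGRN, COL13A1, COL22A1, COL23A1, COL27A1, COL9A2, LAMB1 and LAMC1 lost their calls. CD44 in H1299 was called lower on reads (log2 fold change -0.30 ± 0.09 (SE), adjusted p = 0.0479). It reversed in the fits on TPM, to 0.0598 on log2(TPM + 1) and 0.0599 on log2(TPM + 0.1), neither called. The cause was not tested. To see whether replicate numbers pair the samples, each library was read as its deviation from its group mean, gene by gene on a log scale. These deviations, not the levels themselves, were correlated between the groups of a line. For same-numbered libraries the correlations were -0.12, -0.28 and -0.27 in H1299 and 0.03, 0.05 and 0.06 in THP-1. The numbers were therefore not taken to pair the samples. With the replicate number as a block, 15 members were called in H1299, 30 in THP-1 and 16 for the difference. Not every library had its best correlation of deviations with its own number. In H1299, the deviations of control replicate 1 correlated best with those of labelled DCBLD2 replicate 2 (0.29), control 2 with 3 (0.36) and control 3 with 1 (0.26). Deviations cancel within a group for each gene, so some positive best match was bound to appear for each control. A block for those pairs was not fitted. Under DESeq2, its size factors in edgeR, no filter and a mean of at least 10 counts, these counts stayed within 1.5 times those reported. Low members, those under about 100 reads, are limited by depth.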

Other observations

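For some members, those given here among them, the TPM and the estimated reads did not give the same fold. COL10A1 in THP-1 rose 4.32-fold by mean TPM and 3.33-fold on reads, and its control libraries held 0.926, 2.39 and 0.396 TPM from 28, 14 and 14 reads. COL4A4 in THP-1 was 1.35-fold higher by mean TPM and was called by limma on log2(TPM + 1) (adjusted p = 0.0322), but not on reads, where the log2 fold change was 0.08 ± 0.09. COL1A1 in THP-1 had 3.65, 3.71 and 3.6 TPM against 4.62, 3.84 and 3.83 TPM, with no overlap, and a log2 fold change on reads of -0.01 ± 0.11. COL12A1 in THP-1 was 1.25-fold higher by mean TPM and 1.80-fold on reads. LAMA2 in H1299 was 1.34-fold higher by mean TPM and 1.77-fold on reads, and limma on TPM did not call it. TNC in THP-1 was 1.15-fold higher by mean TPM, with a log2 fold change on reads of -0.12 ± 0.09. Mean TPM of SPARC in labelled DCBLD2 was 0.581 of control in H1299 and 0.409 in THP-1. On reads SPARC fell 2.24-fold in H1299 and 1.78-fold in THP-1. COL19A1 in H1299 was 6.72-fold higher by mean TPM and 3.81-fold on reads. TPM divides reads by a transcript length that can differ between libraries. Which of the values is nearer the truth was not tested.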
